A study of Mus musculus with 2 samples.

Results

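Transcripts of the adrenergic receptors and of the cyclic AMP and protein kinase A (PKA) pathway behind them were compared between 2 libraries of mouse inguinal white fat. The members were chosen by gene symbol, as a list of 41 genes for adrenergic receptors, G alpha subunits, adenylyl cyclases, PKA subunits, phosphodiesterases, CREB factors and A-kinase anchors. All 41 were found among the 37315 genes of the deposited count tables, and 39 of them had a mean of at least 1 CPM (counts per 1000000 counted reads) over both libraries. They were compared beside the 13361 genes of the series that passed the same limit. The 2 members under it were the alpha-2 receptor genes Adra2b and Adra2c.

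Both libraries came from white adipose tissue of C57BL/6 males aged 23 weeks that carried obesity induced by a high-fat diet, so the diet is shared by both groups. One group received vehicle and the other entacapone, a drug given for Parkinson disease. Each group held 1 library, and the dose, the length of treatment and whether tissue was pooled are not stated in the labels. There is therefore no replicate error and no test of the treatment. Every difference below is between these 2 libraries. Intervals are exact 95% intervals that cover counting error only, and "beyond counting error" means that the interval of a ratio (entacapone over vehicle) excluded 1.

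In fat, noradrenaline from sympathetic nerves acts on beta-adrenergic receptors, which couple through the stimulatory G protein to adenylyl cyclase. The cyclic AMP that is made releases the catalytic subunits of PKA from their regulatory subunits. PKA then phosphorylates lipid droplet proteins and lipases, which starts lipolysis, and the transcription factor CREB, which raises the transcription of genes that carry cyclic AMP response elements. Alpha-2 receptors couple to inhibitory G proteins and oppose this, phosphodiesterases break cyclic AMP down, and alpha-1 receptors signal through another G protein class to phospholipase C.

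Counted reads came to 13620056 with vehicle and 12979673 with entacapone. All 10 adipocyte markers were abundant in both, with summed levels of 46927 and 52623 CPM, and their median log2 ratio was 0.07. Beyond counting error 6 of the 10 were higher in the entacapone library and 4 lower. The markers of some other cell types differed more in their median. Macrophage markers were lower in the entacapone library in 11 of 11 (summed 1578 against 784 CPM, median log2 ratio -1.04) and fibroblast and progenitor markers in 9 of 10 (7746 against 4972 CPM, median -0.74), each beyond counting error. Hepatocyte markers were lower in 10 of 10 (377 against 82.7 CPM), skeletal muscle markers higher in 8 of 9 compared (1259 against 1925 CPM), and skin and mammary epithelium markers higher in 6 of 9 (27.4 against 93.5 CPM). The lowest and highest were Apoa4 (137 and 2 reads) and Alb (log2 -1.61) for liver, Mylpf (0.09) and Myh7 (3.35) for muscle, Krt10 (0.08) and Krt1 (2 and 25 reads) for epithelium, and Dpp4 (-1.40) and Pdgfra (-0.01) for fibroblasts. Endothelial markers had 4 higher and 2 lower of 8 (median 0.04), and smooth muscle and pericyte markers 2 higher and 4 lower of 8 (median -0.04, from -0.59 for Cspg4 to 0.58 for Des). T and B lymphocyte markers were higher in 2 of 8 (30.9 against 42.3 CPM). All marker counts given here are of genes beyond counting error. By that rule 20.2% of all genes compared were higher and 21.1% lower, and the lymphocyte count is near that share. Sympathetic and Schwann cell markers had 2 higher and 2 lower of 6 compared (lowest Uchl1 at -0.72), and of the genes for noradrenaline synthesis Dbh had 0 reads in both libraries and Th 0 and 1. The muscle marker Tnnc2 had 0 reads in both. In bulk tissue, fewer cells of a type and less RNA per cell cannot be told apart.

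Most of the 39 genes differed little, and more were lower than higher in the entacapone library. Beyond counting error, 7 members were higher and 14 lower, which is 17.9% and 35.9% of the 39. Over all 13361 genes compared, 20.2% were higher and 21.1% lower by the same rule. The share of members that were higher is thus near that of all genes, and the share that were lower is above it. The median log2 ratio of the members was -0.12 against 0.00 for all genes compared, and 29 of the 39 lay below 0. At 2-fold or more, 0 members were higher and 1, Adcy7, was lower, whereas 1.66% of all genes were higher and 3.5% lower at that size. The beta-3 receptor gene Adrb3 and Adcy7 marked the upper and lower ends, as shown in the plot of all member ratios.

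**Figure D1:**
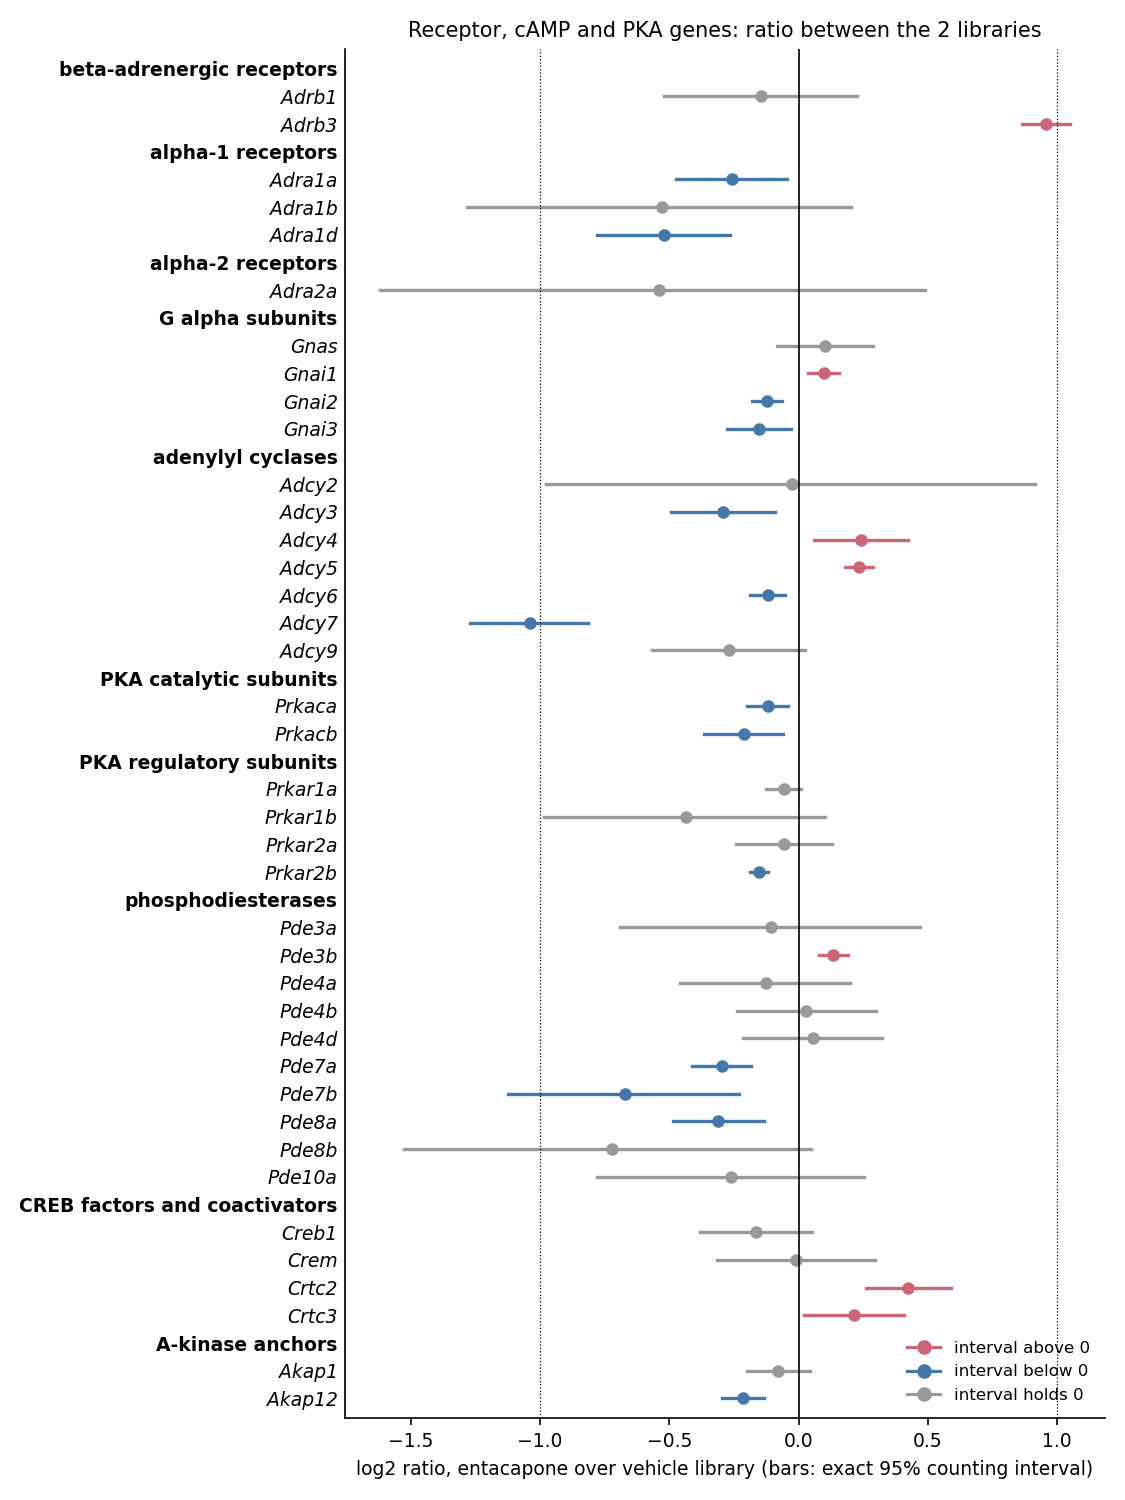
Log2 ratio (entacapone over vehicle library, horizontal axis) of the 39 genes compared, ordered by role. Points are ratios, bars are exact 95% counting intervals, red marks an interval above 0, blue one below 0 and grey one that holds 0, and dotted lines mark 2-fold. Adrb3 lies at 0.96 and Adcy7 at -1.04, and the other 37 lie between -0.72 and 0.42.

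The promoters of these genes and of known cyclic AMP targets are shown first, since CREB binds the letters TGACGTCA (the full element, the same on both strands) or the core TGACG and its reverse complement CGTCA. RefSeq promoters of 300 bases (250 before and 50 after a start, build GRCm38.p6) were found for 30 of the 41 members, with 62 starts. A full element was present in 1 of the 30, Prkar1a, which encodes the type I alpha regulatory subunit of PKA, against 2.03% of all 27025 genes with a promoter. A core, counting those within full elements, was present in 15 of the 30 (50%) against 23.0% of all genes. Per start the shares were 30.6% and 20.8%, because many members have several starts. Among 20 transcripts listed for known induction by cyclic AMP, 16 had a promoter, 16 of those held a core and 4 a full element. That list holds genes known as CREB targets, so this describes the list. Windows for members and for targets discussed further on follow, 5′ to 3′ on the gene's strand, with the element in capitals. They are Prkar1a (chr11:109650889-109650918, + strand), Adrb1 (chr19:56721997-56722061, +), Adcy7 (chr8:88282934-88282991, +), Dusp1 (chr17:26508578-26508645, - strand), Dio2 (chr12:90739096-90739163, -), Fosb (chr7:19310071-19310135, -), Nr4a3 (chr4:48045128-48045192, +), Ppargc1a (chr5:51567740-51567804, -) and Ucp1 (chr8:83290171-83290235, +).
Prkar1a: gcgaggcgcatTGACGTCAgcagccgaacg
Adrb1: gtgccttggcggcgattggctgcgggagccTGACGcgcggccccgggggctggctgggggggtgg
Adcy7: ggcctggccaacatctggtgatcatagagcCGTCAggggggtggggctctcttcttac
Dusp1: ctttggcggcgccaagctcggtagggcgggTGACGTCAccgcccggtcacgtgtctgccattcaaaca
Dio2: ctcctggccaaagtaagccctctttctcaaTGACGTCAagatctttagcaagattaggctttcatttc
Fosb: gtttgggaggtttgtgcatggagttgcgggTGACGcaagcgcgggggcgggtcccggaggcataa
Nr4a3: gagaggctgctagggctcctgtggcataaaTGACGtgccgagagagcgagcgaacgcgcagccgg
Ppargc1a: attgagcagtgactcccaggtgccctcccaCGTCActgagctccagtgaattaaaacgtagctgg
Ucp1: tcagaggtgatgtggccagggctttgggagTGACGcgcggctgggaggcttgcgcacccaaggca

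These matches are letters in a window and say nothing of binding in this tissue. The windows shown are a choice among the genes that carry a match. Of the genes shown, Dusp1, Fosb, Nr4a3 and Ppargc1a, all from the list of known targets, were higher in the entacapone library. Adcy7 and Ucp1 were lower, and Prkar1a, Adrb1 and Dio2 lay within counting error. Among genes with a core that are not shown, the members Prkaca, Prkacb and Pde8a and the target Atf3 were lower beyond counting error. The targets Per1 and Nr4a2 were higher, and several others lay within counting error.

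Among the 8 receptor genes, Adrb3 stood apart in level and in direction. Adrb3 (chromosome 8, 27225776 to 27250616, GRCm38) encodes the beta-3 receptor, through which catecholamines drive lipolysis in mouse fat cells. It had 1470 reads (106 CPM) in the vehicle and 2645 reads (207 CPM) in the entacapone library, a 1.94-fold higher level (1.82 to 2.07; log2 0.96, 0.86 to 1.05). The adipocyte markers of the same libraries lay between log2 ratios of -0.42 (Lep) and 0.54 (Retn), and their part in the value of Adrb3 was not tested. In GENCODE M21 an antisense gene, Gm45470, covers 839 of the 3376 exonic bases of Adrb3. Reads of both strands cannot be told apart in a library kit that does not mark strand. Gm45470 was not among the genes counted, so its reads in the shared bases may be included in those of Adrb3, which was not tested. Adrb1, the beta-1 receptor gene (chromosome 19, 56722199 to 56733113), had 135 and 113 reads, or 9.77 and 8.83 CPM, a difference within counting error (log2 -0.15, -0.52 to 0.22).

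The other receptor genes among the members were all lower in value in the entacapone library, 2 of them beyond counting error. These were 2 of the alpha-1 receptor genes, and 21.1% of all genes compared were lower by the same rule. Adra1d (chromosome 2, 131545850 to 131562283) stood at 23.2 CPM with vehicle and 16.2 CPM with entacapone (log2 -0.52, -0.78 to -0.27), and Adra1a (chromosome 14, 66635251 to 66771168) at 29.5 and 24.6 CPM (log2 -0.26, -0.48 to -0.04). The third alpha-1 gene, Adra1b, had 42 and 27 reads (log2 -0.53, -1.28 to 0.20). Adra1b is also known as a receptor of hepatocytes, whose 10 markers, none at 0 reads, summed to 377 and 82.7 CPM, and their part in its value was not tested. The alpha-2 receptors, which restrain lipolysis, were close to the limit of detection. Adra2a had 22 reads in the vehicle and 14 in the entacapone library, Adra2c 16 and 8, and Adra2b 8 and 5. At this depth a difference in an alpha-2 gene could be seen only if it were large, as the interval of Adra2a (log2 -1.62 to 0.49) shows.

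Set per kilobase of merged exons, which allows a rough comparison of levels between genes, the receptors had the same order at the top in both libraries. The merged length joins the exons of all annotated transcripts of a gene, used in this tissue or not. Levels, orders and ratios between genes depend on it. In the vehicle library Adrb3 stood at 31.5 CPM per kb (29.9 to 33.2), Adra1d at 12.2 (10.9 to 13.7), Adra1a at 3.38 (3.06 to 3.72) and Adrb1 at 2.89 (2.42 to 3.42). In the entacapone library the values were 61.2 (58.9 to 63.6), 8.52 (7.40 to 9.76), 2.82 (2.52 to 3.15) and 2.61 (2.15 to 3.14) CPM per kb. The intervals of Adra1a and Adrb1 overlapped in both. Adra1b followed in both libraries, and the 3 alpha-2 genes, with overlapping intervals, lay between 0.0973 and 0.336 CPM per kb. Adrb3 took 60.7% of the reads of the 8 receptor genes among the members in the vehicle library (exact binomial interval 58.7 to 62.7%, of 2421 reads) and 79.3% in the entacapone library (77.9 to 80.7%, of 3334 reads). Adra1d took 13.3% (11.9 to 14.7%) and 6.21% (5.41 to 7.08%). Shares of the same sum are tied, so the larger Adrb3 count in the entacapone library lowers the share of every other receptor gene.

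**Figure D2:**
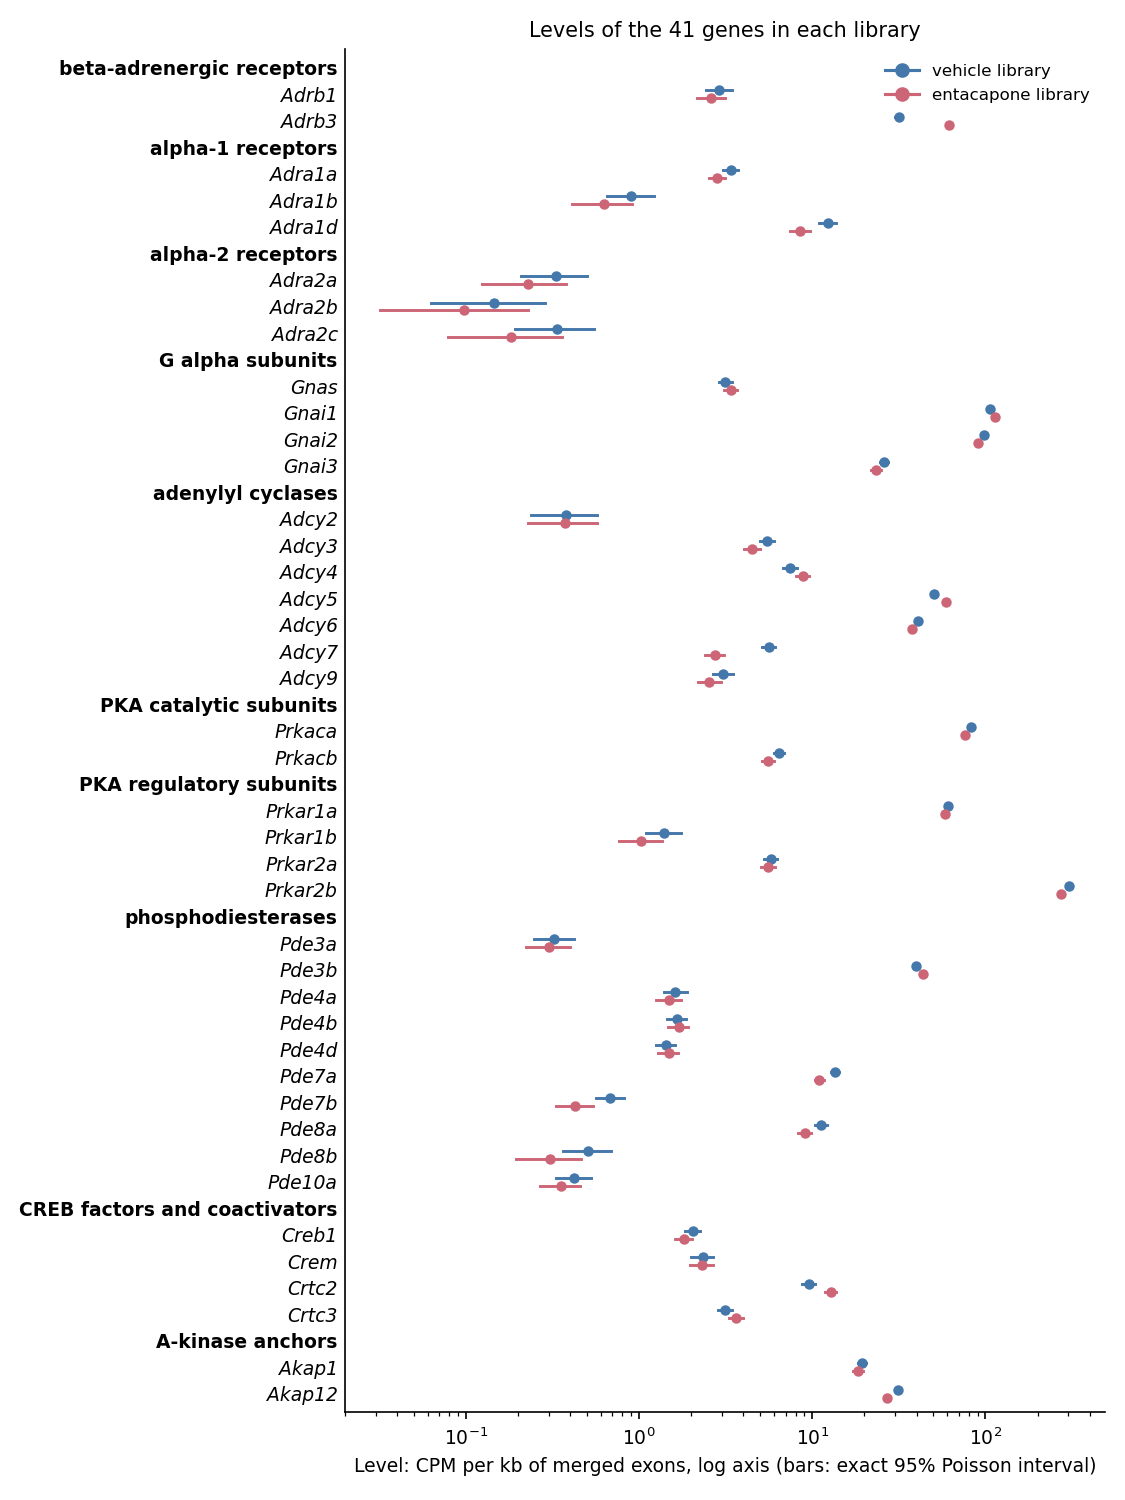
Level of each of the 41 genes in each library, as CPM per kilobase of merged exons on a log axis, with exact 95% Poisson intervals as bars (blue vehicle, red entacapone, 1 library each). Prkar2b is highest at 304 and 273 CPM per kb and the alpha-2 receptor gene Adra2b lowest at 0.144 and 0.0973.

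The G alpha subunit genes differed by little. Gnai1 and Gnai2, which encode inhibitory subunits that lower cyclase activity, were the most abundant. Per kb Gnai1 led in both libraries, whereas by CPM Gnai2 led with vehicle and Gnai1 with entacapone. Gnai1 (chromosome 5, 18265135 to 18360355) was at 334 CPM with vehicle and 358 CPM with entacapone (log2 0.10, 0.04 to 0.16). Gnai2 (chromosome 9, 107614125 to 107635367) was at 373 and 342 CPM (log2 -0.12, -0.18 to -0.07). Gnai3 was at 84.8 and 76.3 CPM (log2 -0.15, -0.28 to -0.03). The 3 inhibitory genes summed to 231 CPM per kb in the vehicle and 228 in the entacapone library. Of the inhibitory reads, Gnai1 took 42.2% (41.3 to 43.1%) in the vehicle and 46.1% (45.1 to 47.1%) in the entacapone library. With scaling to total counts the interval of Gnai1 held 0 (log2 0.06). Gnas, which encodes the stimulatory subunit, had 486 and 483 reads, or 35.2 and 37.7 CPM (log2 0.10, -0.08 to 0.29). Its locus on chromosome 2 is imprinted, and the genes Nespas and Gm20721 on the opposite strand cover 988 and 1469 of its 11186 exonic bases. Reads in shared exons may have been left out in counting, and the merged length joins the exons of all annotated transcripts. The low level of Gnas beside the Gnai genes is therefore uncertain.

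The adenylyl cyclases, which make cyclic AMP, split by isoform. Adcy5 (chromosome 16, 35154877 to 35305738) and Adcy6 (chromosome 15, 98589973 to 98610076) encode the calcium-inhibited cyclases and were by far the most abundant. Adcy5 was higher at 426 CPM in the entacapone against 362 CPM in the vehicle library (log2 0.23, 0.18 to 0.29). Adcy6 was lower at 254 against 276 CPM (log2 -0.12, -0.19 to -0.05). Adcy5 took 47.5% of the reads of the 7 cyclase genes among the members in the vehicle (46.6 to 48.5%) and 54.5% in the entacapone library (53.5 to 55.4%). Per kb the summed level of these 7 genes was 113 in the vehicle and 116 CPM per kb in the entacapone library, so the composition differed more than the sum.

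Adcy7 was the lowest of all members and the only one past 2-fold. Adcy7 (chromosome 8, 88272403 to 88329962) encodes a cyclase that is abundant in macrophages and other blood cells. It had 522 reads (37.8 CPM) in the vehicle and 235 reads (18.4 CPM) in the entacapone library, 2.06-fold lower (1.76 to 2.41; log2 -1.04, -1.27 to -0.82). The 11 macrophage markers, all lower, summed to 1578 and 784 CPM and had a median log2 ratio of -1.04, ranging from -1.58 (Adgre1) to -0.77 (C1qb), and none was at 0 reads. Their part in the value of Adcy7 was not tested. Adcy3 was also lower, at 34.2 against 27.9 CPM (log2 -0.29, -0.50 to -0.09), and 1380 of its 6246 exonic bases are shared with Cenpo on the other strand. Adcy4, which is known from endothelial cells, was higher, with 479 reads under vehicle and 525 under entacapone (log2 0.24, 0.06 to 0.42). Endothelial markers summed to 1028 and 1052 CPM, from log2 -0.34 (Tek) to 0.56 (Flt1), none at 0, and their part in Adcy4 was not tested. Adcy9 (15.9 and 13.2 CPM) and Adcy2 (22 and 20 reads) were within counting error. Adcy9 crossed to lower with scaling to total counts (log2 -0.31).

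**Figure D3:**
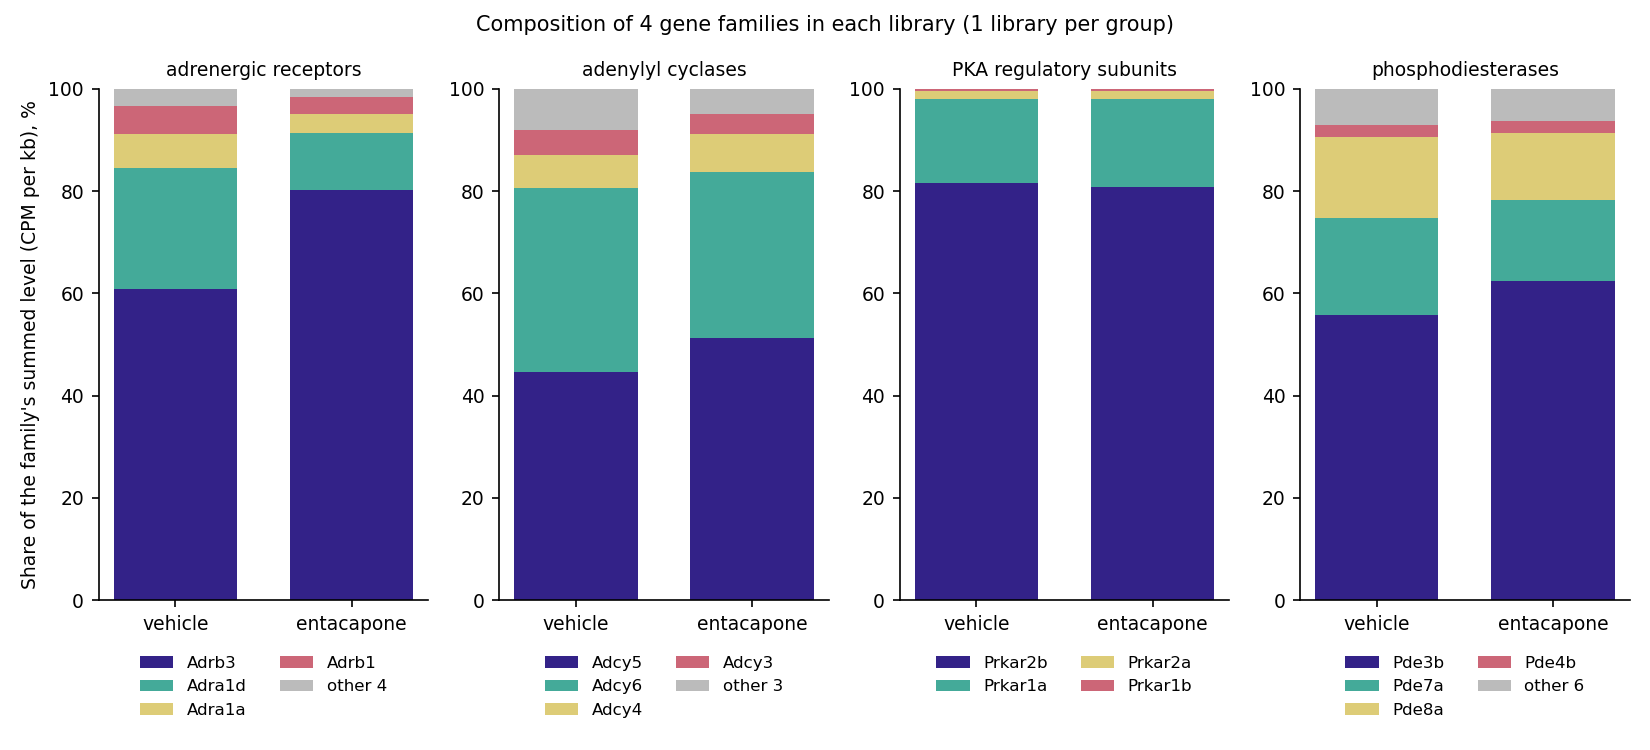
Share of each gene in the summed level (CPM per kb) of the members of its family, in percent, for 4 families in the vehicle and the entacapone library (1 bar per library, no replicates). Adrb3 is at 60.9% and 80.2% of the 8 receptor genes and Adcy5 at 44.6% and 51.3% of the 7 cyclase genes, whereas Prkar2b is at 81.7% and 80.8% of the PKA regulatory subunits.

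Of the 6 PKA subunit genes, 3 were lower in the entacapone library beyond counting error (Prkaca, Prkacb and Prkar2b) and 3 were within it. By the same rule 21.1% of all genes compared were lower. Both catalytic subunit genes were lower beyond counting error. Prkaca (chromosome 8, 83972993 to 83996443), the main catalytic gene here, stood at 207 CPM with vehicle and 190 CPM with entacapone (log2 -0.12, -0.20 to -0.04), and Prkacb at 56.3 and 48.6 CPM (log2 -0.21, -0.37 to -0.06). The regulatory subunits hold the kinase inactive until cyclic AMP binds. Prkar2b (chromosome 12, 31958476 to 32061296), the type II beta subunit that is typical of fat cells, had the highest level of all 41 genes. It had 15336 reads in the vehicle and 12779 in the entacapone library, or 1110 and 998 CPM (log2 -0.15, -0.19 to -0.12). Its large count resolves a difference of 1.11-fold (1.09 to 1.14) beyond counting error, which says nothing of the variation between mice.

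Prkar1a, whose promoter holds the full element shown above, was at 263 CPM with vehicle and 253 CPM with entacapone (log2 -0.06, -0.13 to 0.01). Its interval excluded 0 with scaling by DESeq2 size factors (log2 -0.08) or total counts (-0.10). Prkar2a (36.6 and 35.2 CPM) and Prkar1b (5.28 and 3.91 CPM) were within counting error. Per kb, regulatory subunit transcripts summed to 372 and 338 CPM per kb and catalytic ones to 89.4 and 81.9, a ratio of 4.16 in the vehicle and 4.13 in the entacapone library. The anchoring protein gene Akap12 was lower at 174 against 202 CPM (log2 -0.22, -0.30 to -0.13). Akap1, which tethers PKA to mitochondria, was at 85.1 and 80.6 CPM (log2 -0.08, -0.20 to 0.04).

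The 10 phosphodiesterase genes among the members, whose enzymes end the cyclic AMP signal, were led by Pde3b. Pde3b (chromosome 7, 114415281 to 114539251) encodes the enzyme through which insulin lowers cyclic AMP in fat cells. Of these 10 genes it alone was higher beyond counting error, at 395 CPM in the entacapone against 360 CPM in the vehicle library (log2 0.13, 0.08 to 0.19). Next per kb came Pde7a and Pde8a, both specific for cyclic AMP, and both were lower. Pde7a was at 104 CPM with vehicle and 84.9 CPM with entacapone (log2 -0.30, -0.41 to -0.18), and Pde8a at 45.2 and 36.5 CPM (log2 -0.31, -0.49 to -0.14). Their relatives Pde7b and Pde8b were less abundant. Pde7b had 117 and 68 reads (log2 -0.67, -1.13 to -0.23), and Pde8b 41 and 23 reads (log2 -0.72, -1.53 to 0.05). All 4 genes of the Pde7 and Pde8 classes therefore had lower values in the entacapone library, 3 of them beyond counting error. These 3 were the only genes of the 10 lower by that rule, or 30%, against 21.1% of all genes compared.

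The rolipram-sensitive Pde4 class lay within counting error. Pde4a (12.4 and 11.3 CPM), Pde4b (17.4 and 17.8 CPM) and Pde4d (17.1 and 17.7 CPM) all had intervals that held 0, and per kb their levels overlapped in the vehicle library, at 1.42 to 1.65 CPM per kb. Pde3a, the relative of Pde3b best known from heart and vessels, had 57 and 49 reads, and Pde10a 75 and 58, both within counting error. Pde3b took 62.4% of the reads of these 10 genes in the vehicle (61.3 to 63.4%) and 68.3% in the entacapone library (67.2 to 69.3%). The summed level of the 10 genes was 70.8 in the vehicle and 69.4 CPM per kb in the entacapone library.

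At the end of the pathway, the coactivator genes among the members were higher and the genes of DNA-binding factors lay within counting error. Crtc2 and Crtc3 encode coactivators that enter the nucleus and join CREB when cyclic AMP rises. Crtc2 (chromosome 3, 90254163 to 90264125) was at 38.9 CPM with vehicle and 52.3 CPM with entacapone, 1.34-fold higher (1.20 to 1.51; log2 0.42, 0.26 to 0.59). After Adrb3 it had the highest ratio of the members. Crtc3 was at 30.8 and 35.8 CPM (log2 0.21, 0.02 to 0.41), and its interval held 0 with scaling to total counts (log2 0.17). Crtc1, outside the member list, lay within counting error (log2 -0.02, -0.28 to 0.24). Creb1 (27.9 and 24.9 CPM) and Crem (13.7 and 13.6 CPM), whose short forms repress the same elements, lay within counting error. The counts do not separate the forms of Crem.

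**Figure D4:**
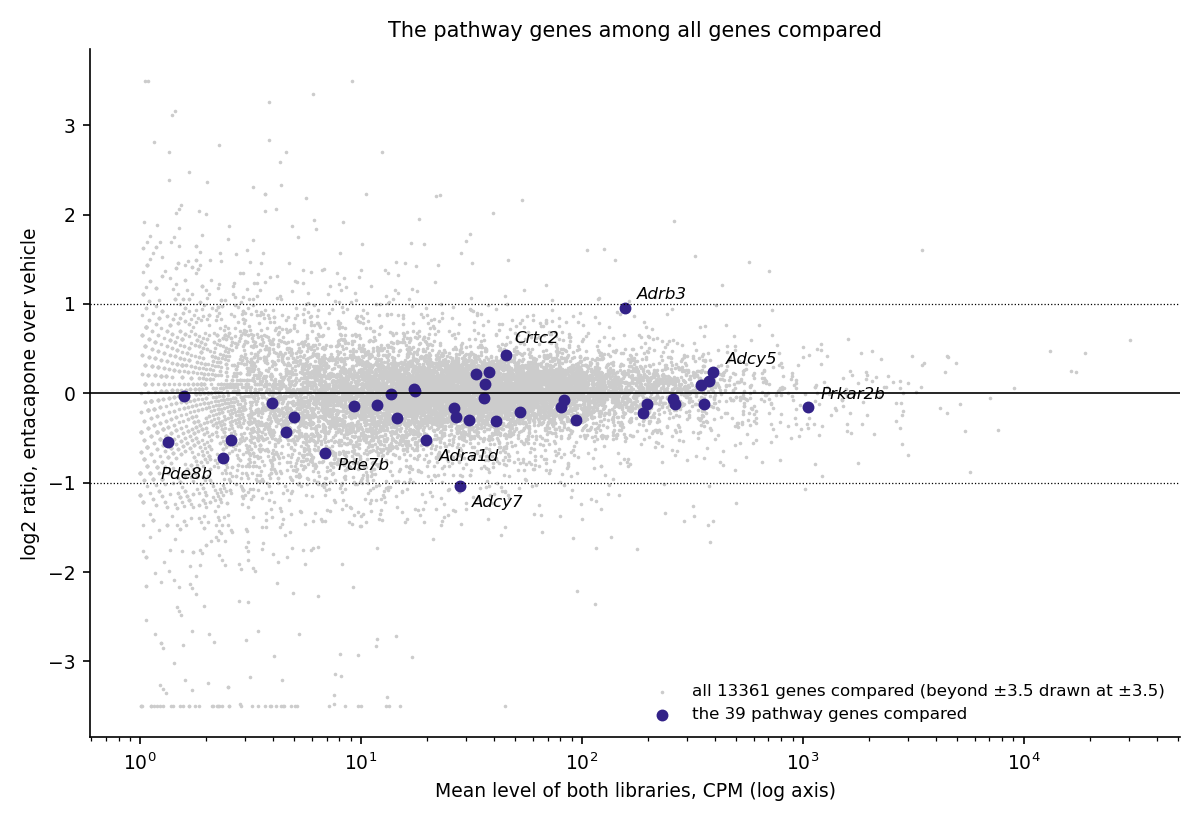
Mean level of both libraries (CPM, log axis) against log2 ratio (entacapone over vehicle) for all 13361 genes compared (grey) and the 39 pathway genes (dark). Dotted lines mark 2-fold, and the scatter of grey points widens toward low levels, where Pde8b and the alpha-2 receptor gene Adra2a lie.

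Other genes of the pathway were taken from 8 further lists and are mostly given by their counts beyond counting error, to be read against 20.2% higher and 21.1% lower of all genes. Of the genes for catecholamine handling, given by gene only, the transporter gene Slc22a3 was lower, at 88.8 and 61.3 CPM (log2 -0.53, -0.67 to -0.40). The monoamine oxidase gene Maoa was lower too, at 54.5 and 40.6 CPM (log2 -0.43, -0.59 to -0.26), whereas Maob, at 52.8 and 56.3 CPM, lay within counting error. Slc18a2, a vesicle transporter gene, had 23 and 18 reads, also within counting error. A list of further G protein subunits of all classes, receptor kinases, arrestins, Rgs2 and Ric8b had 6 higher and 2 lower of 18 (median 0.00). Rgs2, a brake on G protein signalling that cyclic AMP can induce, was highest at 12.0 and 19.1 CPM (log2 0.67, 0.38 to 0.96), followed by Ric8b (0.34), a chaperone of the stimulatory subunit, and Arrb2 (-0.34) and Gnb4 (-0.28) were lowest.

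Other receptors that act on cyclase in fat spread widely, with 4 higher and 6 lower of 15 (median -0.25). The melanocortin receptor gene Mc5r, which is also expressed in sebaceous glands, had 20 reads in the vehicle and 76 in the entacapone library (log2 2.04, 1.31 to 2.83), and the secretin receptor gene Sctr 99 and 239 (1.38, 1.04 to 1.73). The prostaglandin receptor gene Ptger3, which couples to inhibitory G proteins, was at 115 and 44.7 CPM (-1.37, -1.51 to -1.23). Gcgr, the glucagon receptor gene, had 63 and 15 reads (-1.96, -2.88 to -1.13). Epithelial markers summed to 27.4 and 93.5 CPM and hepatocyte markers to 377 and 82.7 CPM, and their part in the values of Mc5r and Gcgr was not tested.

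Cyclases and phosphodiesterases outside the member list had 1 higher and 0 lower of 6 (median 0.07). The higher gene was Pde1a, a calmodulin-dependent phosphodiesterase, at 26.5 and 45.0 CPM (log2 0.76, 0.57 to 0.96), with Pde4c next (0.35), and Pde5a (-0.19) and Pde9a (-0.18), which act on cyclic GMP, were lowest. Further cyclic AMP effectors, PKA inhibitors and anchors had 4 higher and 4 lower of 14 (median 0.03, mean -0.06). The PKA inhibitor genes differed among themselves: Pkig was at 23.4 and 33.3 CPM (0.51, 0.30 to 0.72), whereas Pkia was at 35.8 and 26.3 CPM (-0.45, -0.65 to -0.24) and Pkib had 34 and 13 reads (-1.28, -2.32 to -0.32). Popdc2, a cyclic AMP binding membrane protein gene of muscle, was at 0.51 (0.15 to 0.88), and Rapgef4 at -0.50 (-1.42 to 0.38). Popdc2 lay near the median of the skeletal muscle markers (0.66), whose part in its value was not tested.

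Among the lipolysis proteins that act after PKA, 4 were higher and 2 lower of 7 (median 0.03, mean -0.09). The 4 included Lipe, whose interval lay close to 0 (log2 0.03, 0.005 to 0.05). The further pathway lists and the marker lists were not rerun with other scaling. Pnpla2, the gene of adipose triglyceride lipase (log2 0.41), and its activator gene Abhd5 (0.28) were highest, and the inhibitor gene G0s2 (-1.42) and the droplet coat gene Plin1 (-0.19) lowest. CREB partners and salt-inducible kinases had 5 higher and 0 lower of 8 (median 0.20). Sik3 was at 48.7 and 82.4 CPM (0.76, 0.62 to 0.90) and Sik1, itself a cyclic AMP target, at 51.9 and 76.3 CPM (0.55, 0.41 to 0.70). These kinases hold Crtc proteins in the cytoplasm. Lowest were Crtc1 (-0.02) and Nono (0.03), both within counting error.

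Transcripts known to be induced by cyclic AMP had 9 higher and 3 lower of 16 compared, with a median of 0.29. Fosb, an early response transcription factor gene, had 20 reads in the vehicle and 93 in the entacapone library (log2 2.33, 1.62 to 3.10), and Nr4a3, an orphan receptor gene of the same response, 14 and 33 (1.35, 0.41 to 2.36). Dusp1 was at 50.7 and 87.4 CPM (0.78, 0.65 to 0.92), and the coactivator gene Ppargc1a had 29 and 48 reads (0.84, 0.14 to 1.55). The clock gene Per1 was at 81.6 and 148 CPM (0.86, 0.75 to 0.97). The list did not go one way. The thermogenic gene Ucp1, with 45 and 8 reads (-2.38, -3.68 to -1.28), and Atf3, at 13.5 and 5.24 CPM (-1.36, -1.79 to -0.95), were lowest, and Dio2, with 13 and 4 reads, was under the limit for comparison. Fos (22.7 and 21.2 CPM) and Pck1 (log2 -0.01, -0.04 to 0.02) were within counting error.

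**Figure D5:**
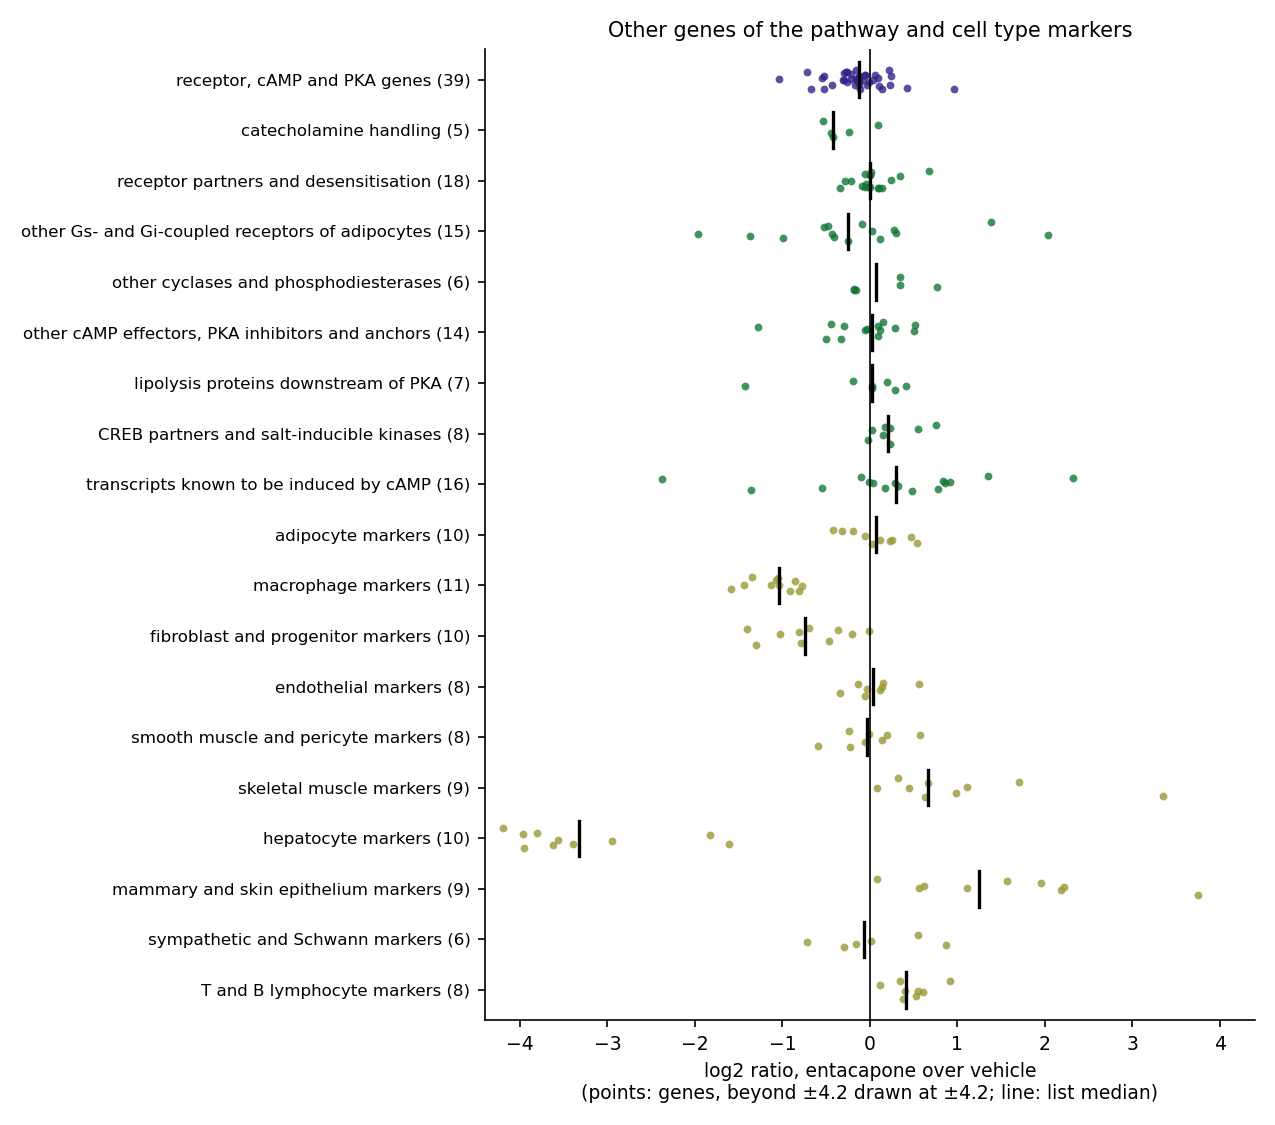
Log2 ratio (entacapone over vehicle, horizontal axis) of each compared gene in the member list, 8 further pathway lists and 10 cell type marker lists, with the number of genes in parentheses. Points are genes and black lines are list medians, from -3.32 for hepatocyte to 1.25 for epithelium markers, with the receptor, cAMP and PKA genes at -0.12.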

How the data were processed

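Poly(A) RNA was sequenced in 1 library per group (TruSeq RNA v2, which does not mark strand, per the labels' protocols). The authors deposited raw counts per Ensembl gene. The submitters' processing notes name TopHat2 2.1.1, HTSeq 0.6.0 and mm10. The annotation release and counting mode were not given in the sources used here. Symbols, positions and merged exon lengths were taken from GENCODE M21 (GRCm38, the assembly of mm10) for 35449 of 37315 genes. CPM used effective library sizes from edgeR 4.0.16 (TMM factors 1.01 and 0.986). Ratio intervals were Clopper-Pearson intervals of a gene's entacapone read share (SciPy 1.17.1). The code was checked on simulated counts with counting error only, so that check says nothing of variation between mice or libraries. List medians used log2 values with a pseudocount of 0.5 CPM. With 1 library per group no p-value was computed, and reads carry no molecular identifiers.

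The members and lists were chosen with earlier results of these data known. Named were all members and, per further list, the 2 highest and 2 lowest genes plus Ppargc1a and Ucp1; of marker lists the highest and lowest; any other gene was chosen after its values were seen. A few genes that this rule names are not reported here. Pde2a matched no row by symbol and was not analysed here. Alternatives were DESeq2 1.42.0, total-count and upper-quartile scaling, other limits, a thinned vehicle library and removal of the trend with exon length.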

Additional observations from a re-analysis of the deposited data

How the results depend on the processing

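With 7 members higher and 14 lower beyond counting error, these counts moved to 5 and 16 with total counts and stayed within 1.5 times under all alternatives run for them. The member median stayed between -0.16 and -0.11. Scaling moved the median of all genes compared between -0.03 (total counts) and 0.02 (upper-quartile) on the log2 scale. Of the 39 members, 4 changed their side of the interval with total counts (Gnai1 and Crtc3 lost it, Adcy9 and Prkar1a gained it). With DESeq2 size factors 1 did (Prkar1a), and 1 with the vehicle library thinned (Pde8b, log2 -0.79). Among members beyond counting error, 0 reversed in sign. Within counting error, Crem went from log2 -0.009 to 0.005 with upper-quartile scaling. Pde4b went from 0.03 to -0.01 with total counts. At 1.5-fold instead of 2-fold, 1 member was higher (Adrb3) and 2 were lower (Adcy7 and Pde7b). No paired analysis was possible because each group held 1 library. Depth limits the alpha-2 receptors, Adra1b, Adcy2, Prkar1b, Pde3a, Pde8b and Pde10a, each with under 100 reads per library.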
